A study of Saccharomyces cerevisiae with 9 samples.

Results

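The RNA levels of 35 genes of the glutathione, thioredoxin and peroxide defence of budding yeast were compared between wild type and strains with a blocked Kennedy pathway, the route that makes phosphatidylethanolamine and phosphatidylcholine from ethanolamine and choline. The genes were chosen by symbol and not by a cut on measured values, but with earlier results of these data known. They were taken as the glutathione and thioredoxin systems, peroxiredoxins, superoxide dismutases, NADPH supply and the regulators YAP1 and SKN7. All 35 were found among the 7122 genes of the deposited table, and all 35 had enough counts to be tested.

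Polyadenylated RNA was sequenced from 9 libraries in 3 groups of 3. The wild type (WT) was a prototrophic CEN.P.K strain. The ect1Δ pct1Δ strain lacked the enzymes that activate ethanolamine phosphate (ECT1) and choline phosphate (PCT1) with CTP, and the cpt1Δ ept1Δ strain lacked the phosphotransferases (CPT1 and EPT1) that complete both lipids. Cells of all groups carried the same strain background and were taken in log phase from minimal synthetic medium with 2% glucose. No oxidant or other stress was applied to any group, as far as the labels say. The labels do not say whether the libraries of a group came from separate cultures or clones, so each p-value covers the variation among these libraries alone, some or all of which may be technical.

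Glutathione and thioredoxin are the carriers of reducing power for thiols. Glutathione is made by GSH1 and GSH2 and kept reduced by GLR1, while thioredoxins are kept reduced by their reductases. Both systems draw on NADPH, much of it from the pentose phosphate pathway, and pass electrons to glutaredoxins, peroxiredoxins and glutathione peroxidases that remove peroxides and repair oxidised proteins. In yeast the transcription factor Yap1 is oxidised through the peroxidase Hyr1 when peroxide rises and then switches on many of these genes, often together with Skn7, and the general stress factor Msn2 acts on part of them.

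The promoters of the genes were searched for both regulators' motifs, and the matches are shown so that they can be read beside the values of each gene. In the 500 bases before the start codon the Yap1 motif TTACTAA, read on both strands as TTACTAA or TTAGTAA, was present in 17 of 35 genes (48.6%), against 708 of 6000 promoters of the same length in the whole genome (11.8%). The Msn2 motif AGGGG, read on both strands as AGGGG or CCCCT, was present in 18 of 35 genes (51.4%) against 2044 of 6000 promoters (34.1%). These matches are descriptions of letters in a window and not measured binding sites. TRX2, GPX2 and OYE3 each held 2 matches to the Yap1 motif, and ZWF1 held 5 to the Msn2 motif. The Yap1 matches of the genes with the lowest p-values, and of TRX2, are given 5′ to 3′ on the strand of the gene, with the motif in capitals and the surrounding bases in lower case, from the RefSeq sequence of build R64.
GRX2: agcagaactaTTACTAAgatccgatat
OYE3: gaagggctccTTAGTAAgcagtttgcg
OYE3: gcaataaccaTTACTAAgcacagtgtt
GTT1: ctacggccatTTACTAAtgattttcac
GTT2: ctttcactgcTTACTAAttcattcgtt
GPX2: cggacgttacTTACTAAatgtacgacg
GPX2: atctagacaaTTAGTAAttccgatgac
OYE2: tctcgtgtgcTTAGTAAagcaaaacgg
TRX2: gtttatactcTTAGTAAaggatgctcc
TRX2: ggctcttttcTTACTAAgcgcgttcag
The GRX2 stretch lies at chrIV:1470863-1470889 on the plus strand, with its motif starting 144 bases before the start codon. The OYE3 stretches lie at chrXVI:227567-227593 and chrXVI:227503-227529 on the minus strand, with motifs 212 and 148 bases before the start codon. The GTT1 stretch lies at chrIX:424662-424688 and the GTT2 stretch at chrXII:21921-21947, both on the minus strand. The GPX2 stretches lie at chrII:707101-707127 and chrII:707258-707284 and the OYE2 stretch at chrVIII:462165-462191, all on the plus strand. The TRX2 stretches lie at chrVII:913428-913454 and chrVII:913392-913418 on the minus strand. HYR1 and CCP1, which are also among the genes with the lowest p-values, held no match to the Yap1 motif in this window.

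The libraries held 5669951 to 11793688 counts, of which the 35 genes took 0.791 to 0.844%. The deleted genes were close to absent in the strains labelled as lacking them: over 3 libraries ECT1 had 3 and PCT1 22 counts in ect1Δ pct1Δ, and CPT1 had 9 and EPT1 5 counts in cpt1Δ ept1Δ, against 2499 to 5366 in WT. The series' design text names another pair of genes, PAH1 and DGK1, which no sample label names, and the genotype of the later replicates is written with gene digits that climb with the replicate number, so these digits were taken as the replicate's. On the leading principal component WT replicate 3 lay at 13.01 and ect1Δ pct1Δ replicate 2 at 7.33, apart from the others of their groups (with the other libraries between -9.66 and 3.80), and cpt1Δ ept1Δ replicate 3 held 0.0191% mitochondrial ribosomal RNA against 0.00024 to 0.00344% elsewhere. Of the 12 general stress and stationary-phase markers used to check the log-phase label, SPG1, SPG4 and SIP18 had at most 12 counts in any library. The summed level of the other 9 was 197 to 201 CPM (counts scaled to library size with TMM factors) in WT, 210 to 246 in the ect1Δ pct1Δ libraries and 203 to 225 in the cpt1Δ ept1Δ libraries.

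In WT the genes covered a 467-fold range of FPKM, a level per gene length and library size in which genes can be compared with each other. The highest was SOD1, the cytosolic copper and zinc superoxide dismutase, with an FPKM of 1778 ± 166 (SD, n = 3). It was followed by GND1, the phosphogluconate dehydrogenase that yields NADPH, at 1379 ± 23.3, by TSA1, the main cytosolic peroxiredoxin, at 1325 ± 65.8, and by AHP1, a peroxiredoxin for alkyl hydroperoxides, at 1117 ± 96.8. These 4 genes held 53.7% of the summed FPKM of all 35. The lowest were ECM4, an omega class glutathione transferase, at 9.86 ± 2.33, and OYE3, the minor old yellow enzyme, at 3.81 ± 0.43. The libraries of neighbours in this order overlapped in 16 of 34 neighbouring pairs. SOD1 lay above GND1 in every WT library, while GND1 and TSA1 overlapped, as did each neighbouring pair from GLR1 through GSH2, GRX2 and GSH1 to YAP1.

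**Figure D1:**
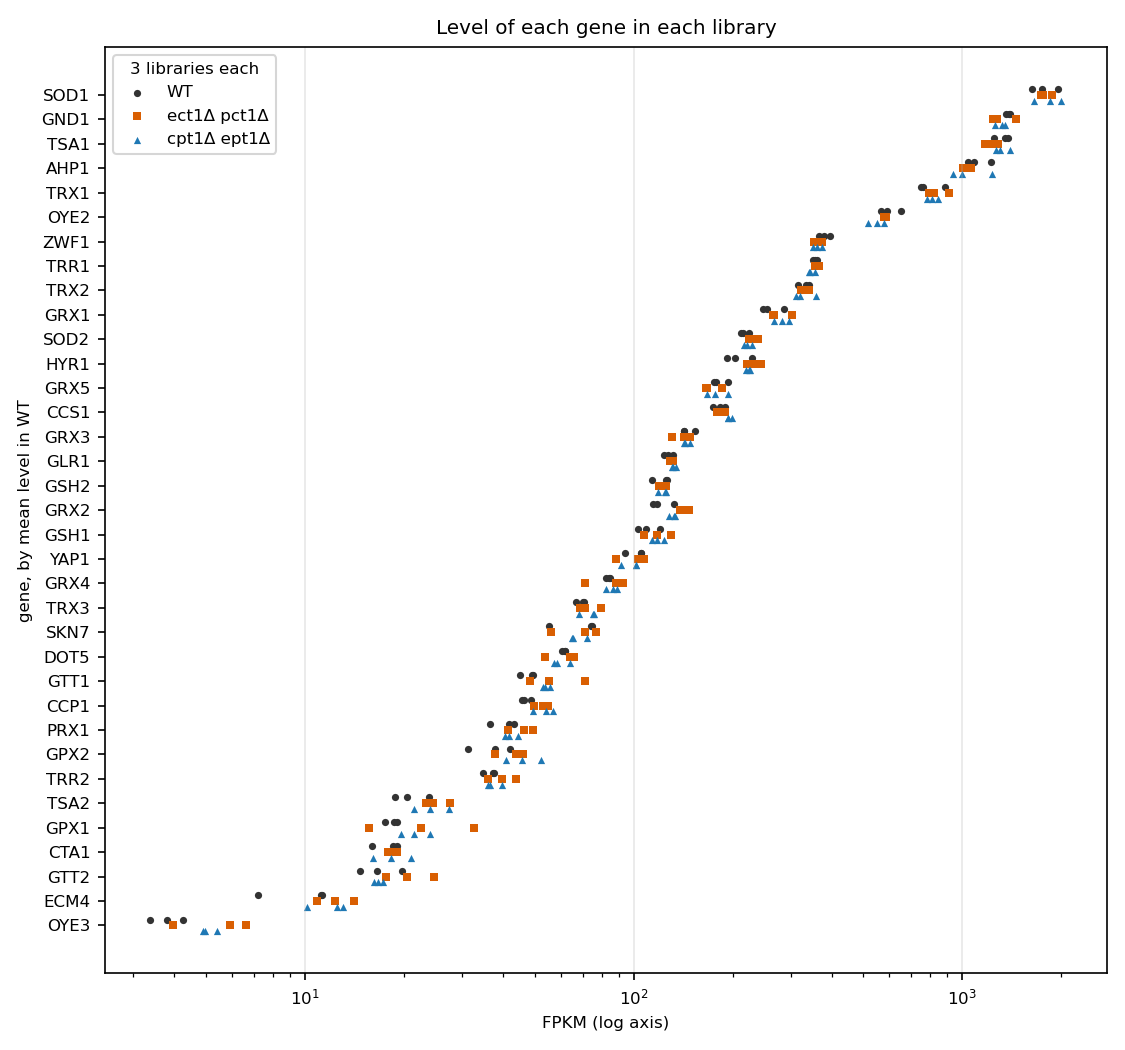
FPKM of each gene (log axis) in every library, with genes ordered by their mean in WT and 3 libraries for each strain. The order spans SOD1 at 1778 to OYE3 at 3.81 in WT, and the points of the 3 strains lie close together for most genes.

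With ECT1 and PCT1 deleted, no gene of the defence was called as different from WT. None of the 35 genes passed an adjusted p of 0.05 in edgeR's quasi-likelihood test with Benjamini-Hochberg adjustment over 6083 genes, where 28 genes (0.46%) did. At an unadjusted p below 0.05 there were 4 of the 35, all higher (GRX2, OYE3, GTT1 and HYR1), against 6.61% of all genes in either direction and 4.14% higher. DESeq2 and limma on log2(FPKM + 1) also called none of the 35. They had 3 and 4 of the 35 below an unadjusted 0.05, against 306 and 462 of 6083 genes. The median log2 fold change of the 35 was 0.04 against 0.00 for all genes tested. Of the 35, 24 (68.6%) were positive, against 51.2% of all genes. Only GRX2 had 3 libraries that did not overlap with the WT libraries, while 10.6% of all genes tested had that, 5.92% as higher. In bulk RNA a difference in every cell and a larger one in some of the cells cannot be told apart.

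Deletion of CPT1 and EPT1 gave a similar picture of small values. None of the 35 passed the adjusted threshold in edgeR's quasi-likelihood test, where 8 of all genes (0.132%) did. Unadjusted p-values below 0.05 were found for CCP1 and GPX2, both higher, and for OYE2, which was lower, against 5.28% of all genes, 2.58% higher and 2.7% lower. DESeq2 and limma again called none of the 35. They had 2 and 3 of the 35 below an unadjusted 0.05, against 218 and 344 of 6083 genes. The median log2 fold change was 0.04 against -0.00 for all genes, and 22 of 35 (62.9%) were positive, against 49.2% of all genes. The libraries did not overlap with WT for 6 genes, with GTT1, GPX1, CCP1, CCS1 and OYE3 higher and ZWF1 lower, against 10.4% of all genes, 5.24% higher and 5.19% lower. Both comparisons use the same 3 WT libraries, so values they have in common are not independent.

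The strains were also set against each other. None of the 35 was called in edgeR's quasi-likelihood test against 12 of all genes (0.197%), and GTT2 alone had an unadjusted p below 0.05, which 4.72% of all genes had, 2.99% as lower. DESeq2 and limma called none of the 35. Both had 0 of the 35 below an unadjusted 0.05, against 201 and 314 of 6083 genes. GTT2 and GRX2 were lower and CCS1 higher in all cpt1Δ ept1Δ libraries than in all ect1Δ pct1Δ libraries, while 10.3% of all genes did not overlap, 5.59% lower and 4.75% higher. The median log2 fold change between the strains was -0.01, with 15 of 35 (42.9%) positive, against 48.4% of all genes.

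The intervals say how large a difference these libraries leave room for. In ect1Δ pct1Δ the 95% interval of the fold change lay within 1.2-fold of WT for 20 of 35 genes, within 1.5-fold for 30 and within 2-fold for 34, the exception being OYE3. In cpt1Δ ept1Δ the counts were 21, 31 and 35. Between the strains they were 25, 34 and 35, with GTT2 outside 1.5-fold. The wide intervals belong to genes of low level: TSA2, GPX1, ECM4, GTT2 and OYE3 were those beyond 1.5-fold in ect1Δ pct1Δ.

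**Figure D2:**
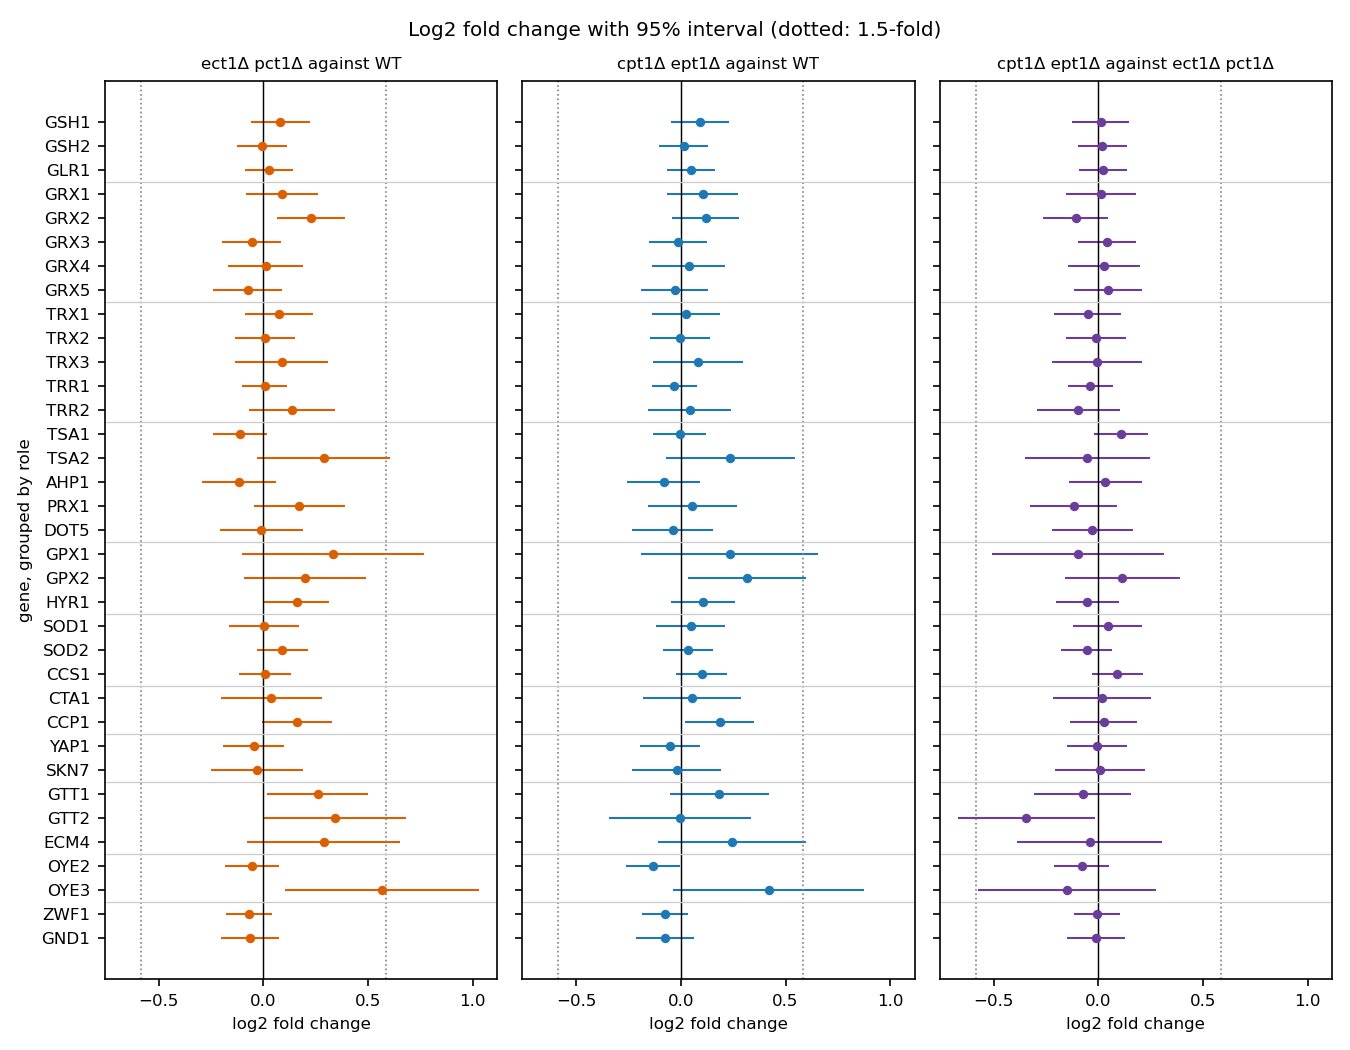
Log2 fold change (points) with its 95% interval (lines) for the 35 genes in the 3 comparisons, grouped by role, with dotted lines at 1.5-fold. The intervals of 30, 31 and 34 genes lie between the dotted lines, and the longest belong to OYE3, GPX1, ECM4 and GTT2.

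The enzymes that make and recycle glutathione were steady. GSH1, the first and limiting enzyme of glutathione synthesis, had an FPKM of 111 ± 8.34 in WT, 118 ± 11.3 in the ect1Δ pct1Δ libraries and 118 ± 4.80 in the cpt1Δ ept1Δ libraries (SD, n = 3 each). GSH2, glutathione synthetase, had fold changes of 0.996 (95% interval 0.918 to 1.08) and 1.01 (0.931 to 1.09). GLR1, the NADPH-dependent reductase that returns oxidised glutathione to its thiol form, had fold changes of 1.02 (0.939 to 1.10) and 1.04 (0.956 to 1.12). None of these intervals, that of GSH1 (0.960 to 1.17 and 0.968 to 1.17) included, reaches 1.2-fold, and the summed FPKM of the 3 genes overlapped between all groups.

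Among the glutaredoxins, which reduce mixed disulfides with glutathione, GRX2 had the lowest p-value of all 35 genes. GRX2 lies at chrIV:1471017-1471448 on the plus strand as a single exon. Its level was 50.4, 49.0 and 58.3 CPM in the WT libraries, 62.6, 61.9 and 59.2 in the ect1Δ pct1Δ libraries and 57.6, 55.1 and 57.9 in the cpt1Δ ept1Δ libraries. The ect1Δ pct1Δ libraries lay above every WT and every cpt1Δ ept1Δ library, by a small margin over WT replicate 3. Against WT it had a log2 fold change of 0.23 ± 0.08 (SE), with an unadjusted p of 0.00872 and an adjusted p of 0.427 in edgeR's quasi-likelihood test with Benjamini-Hochberg adjustment. Over the alternatives this adjusted p ranged from 0.1002 to 0.964. GRX2 overlaps the antisense gene EMI1 by 47 bases, and EMI1 had 101 to 300 counts. Strand use in the counting is not given, so reads of that overlap could belong to either gene.

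GRX1, the other dithiol glutaredoxin, had fold changes of 1.06 and 1.07 with intervals from 0.945 to 1.21. GRX3, a monothiol glutaredoxin that acts with GRX4 in iron signalling, had 121, 121 and 134 CPM in WT, 120, 129 and 111 in the ect1Δ pct1Δ libraries and 127, 121 and 124 in the cpt1Δ ept1Δ libraries. Its 3 groups overlapped throughout. The deposited table gives GRX3 a length of 858 bases, longer than the 753-base reading frame in RefSeq. This may alter its FPKM relative to the other genes, which was not examined, and does not touch comparisons between strains. GRX4 had fold changes of 1.01 and 1.03. GRX5, the mitochondrial monothiol glutaredoxin of iron-sulfur cluster assembly, had 80.2, 79.1 and 89.5 CPM in WT, 74.4, 85.3 and 74.4 in the ect1Δ pct1Δ libraries and 87.5, 79.8 and 76.5 in the cpt1Δ ept1Δ libraries. The groups overlapped, with fold changes of 0.949 and 0.980.

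In the thioredoxin system the cytosolic genes had the narrower intervals and the mitochondrial genes the wider. TRX1 and TRX2, the cytosolic thioredoxins, had fold changes of 1.05 and 1.01 in ect1Δ pct1Δ, and of 1.02 and 0.998 in cpt1Δ ept1Δ. TRX2 is a well known Yap1 target with 2 matches to the motif, and its level was 330 ± 13.2 FPKM in WT, 334 ± 10.01 in the ect1Δ pct1Δ libraries and 330 ± 25.7 in the cpt1Δ ept1Δ libraries. TRR1, the cytosolic thioredoxin reductase and also a known Yap1 target, had a fold change of 1.00 (0.931 to 1.08) and 0.978 (0.908 to 1.05). TRX3 and TRR2, the mitochondrial thioredoxin and its reductase, had fold changes of 1.06 (0.911 to 1.24) and 1.10 (0.954 to 1.27) in ect1Δ pct1Δ, past 1.2-fold at the upper end for both. In cpt1Δ ept1Δ they had 1.06 (0.911 to 1.23) and 1.03 (0.896 to 1.18). For all 5 genes the libraries overlapped in both comparisons with WT.

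The peroxiredoxins, thiol peroxidases that are reduced by thioredoxin or glutathione, include both very abundant and scarce genes. TSA1 had 807, 735 and 813 CPM in WT, 722, 768 and 685 in the ect1Δ pct1Δ libraries and 823, 745 and 779 in the cpt1Δ ept1Δ libraries. The ect1Δ pct1Δ values were the lowest on average but overlapped with both other groups, with log2 fold changes of -0.11 ± 0.06 (SE) against WT and, for cpt1Δ ept1Δ against ect1Δ pct1Δ, 0.11 ± 0.06. The unadjusted p-values were 0.0797 and 0.0926 in edgeR's quasi-likelihood test. TSA2, its little-expressed paralog, had fold changes of 1.22 (0.980 to 1.52) and 1.18 (0.951 to 1.46). AHP1 had 646, 549 and 589 CPM in WT, 555, 565 and 527 in the ect1Δ pct1Δ libraries and 655, 497 and 537 in the cpt1Δ ept1Δ libraries. Its groups overlapped, and the cpt1Δ ept1Δ libraries alone spanned more than the other groups. PRX1, the mitochondrial single-cysteine peroxiredoxin, had 33.6, 28.5 and 33.5 CPM in WT, 32.0, 39.3 and 36.1 in the ect1Δ pct1Δ libraries and 34.9, 32.7 and 32.3 in the cpt1Δ ept1Δ libraries, again with overlap. DOT5, the nuclear thiol peroxidase, had fold changes of 0.993 and 0.974.

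The glutathione peroxidase family had positive values for all 3 members in both strains. HYR1, the peroxidase that senses peroxide for Yap1, had 99.6, 94.2 and 115 CPM in WT, 108, 121 and 114 in the ect1Δ pct1Δ libraries and 111, 108 and 112 in the cpt1Δ ept1Δ libraries. WT replicate 3 lay among the deletion strains and the other WT libraries lay below them. In ect1Δ pct1Δ the log2 fold change of HYR1 was 0.16 ± 0.07 (SE), with an unadjusted p of 0.0453 and an adjusted p of 0.737 in edgeR's quasi-likelihood test with Benjamini-Hochberg adjustment, and 0.11 ± 0.07 in cpt1Δ ept1Δ. The ect1Δ pct1Δ value was 0.10 without WT replicate 2, and also 0.10 without ect1Δ pct1Δ replicate 2. GPX2, a stress-inducible peroxidase, had 18.4, 15.2 and 20.9 CPM in WT, 22.2, 21.7 and 18.3 in the ect1Δ pct1Δ libraries and 25.6, 22.3 and 20.3 in the cpt1Δ ept1Δ libraries. Its highest WT library, replicate 3, exceeded the lowest library of either deletion strain. In cpt1Δ ept1Δ the log2 fold change of GPX2 was 0.32 ± 0.13 (SE), with an unadjusted p of 0.0298 and an adjusted p of 0.938 in edgeR's quasi-likelihood test. GPX1, the third peroxidase, had 50 to 138 counts in a library and varied most among the 35, with a coefficient of variation of 35.9% in ect1Δ pct1Δ. Its fold changes were 1.26 (0.932 to 1.70) and 1.18 (0.877 to 1.58). The log2 fold change of GPX1 in ect1Δ pct1Δ was 0.33, but 0.09 without replicate 3 of that strain and 0.54 without its replicate 1. In cpt1Δ ept1Δ it was 0.23, and 0.14 without replicate 3.

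The superoxide dismutases were near their WT level. In the ect1Δ pct1Δ libraries SOD1 had a fold change of 1.00 (0.893 to 1.12), and in the cpt1Δ ept1Δ libraries 1.03 (0.921 to 1.16). For both strains in the same order SOD2, the mitochondrial manganese enzyme, had 1.06 (0.978 to 1.16) and 1.02 (0.941 to 1.11). CCS1, the chaperone that delivers copper to SOD1, had 141, 136 and 133 CPM in WT, 133, 144 and 136 in the ect1Δ pct1Δ libraries and 149, 145 and 147 in the cpt1Δ ept1Δ libraries. The cpt1Δ ept1Δ libraries lay above all 6 others, by less than 1 CPM over ect1Δ pct1Δ replicate 2, and the log2 fold change against WT was 0.10 ± 0.06 (SE) with an unadjusted p of 0.1002 in edgeR's quasi-likelihood test. CTA1, the peroxisomal catalase, had fold changes of 1.03 and 1.04. CCP1, the mitochondrial cytochrome c peroxidase, had 50.0, 49.5 and 54.0 CPM in WT, 53.0, 60.3 and 56.9 in the ect1Δ pct1Δ libraries and 61.8, 58.3 and 54.2 in the cpt1Δ ept1Δ libraries. The cpt1Δ ept1Δ libraries were all above the WT libraries, the lowest of them by less than 1 CPM over WT replicate 3. For CCP1 the log2 fold change in cpt1Δ ept1Δ was 0.18 ± 0.08 (SE), with an unadjusted p of 0.0286 and an adjusted p of 0.938 in edgeR's quasi-likelihood test with Benjamini-Hochberg adjustment.

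The RNA of the regulators themselves stayed near WT. YAP1 had fold changes of 0.969 (0.876 to 1.07) and 0.964 (0.873 to 1.06), and SKN7, the response regulator that acts with it, 0.979 (0.842 to 1.14) and 0.986 (0.850 to 1.14). Yap1 is controlled mainly through its oxidation and export from the nucleus, which RNA levels do not measure. The genes with a Yap1 motif had a median log2 fold change of 0.04 in ect1Δ pct1Δ (17 genes, 14 positive) and those without one also 0.04 (18 genes, 10 positive). TRR1, named above as a known Yap1 target, held no match, so this split follows the motif and not the known targets. In cpt1Δ ept1Δ the medians were 0.05 with the motif and 0.02 without. For the Msn2 motif the medians were 0.11 with it and 0.01 without in the ect1Δ pct1Δ libraries, and 0.07 and 0.01 in the cpt1Δ ept1Δ libraries. These medians are descriptions and were not tested.

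Glutathione transferases, which attach glutathione to electrophiles, gave the largest difference of the summed FPKM from WT among the 11 roles in ect1Δ pct1Δ when taken as a percentage of the WT sum. In FPKM itself the more abundant peroxiredoxins differed more, with a mean sum of 2401 against 2565 in WT and libraries that overlapped. GTT1, the transferase of the endoplasmic reticulum, had 31.6, 34.4 and 35.4 CPM in WT, 38.4, 34.5 and 49.6 in the ect1Δ pct1Δ libraries and 39.1, 37.3 and 38.4 in the cpt1Δ ept1Δ libraries. The cpt1Δ ept1Δ libraries lay above all WT libraries, while in ect1Δ pct1Δ replicate 3 was far above and replicate 2 lay within the WT values. GTT1 had a log2 fold change in ect1Δ pct1Δ of 0.26 ± 0.11 (SE), with an unadjusted p of 0.0373 and an adjusted p of 0.688 in edgeR's quasi-likelihood test with Benjamini-Hochberg adjustment. Without ect1Δ pct1Δ replicate 3 this value was 0.11, and without both WT replicate 3 and ect1Δ pct1Δ replicate 2 it was 0.41. GTT1 lies tail to tail with HYR1 on chromosome IX, with 189 bases between their coding regions. GTT2 had 10.2, 11.6 and 14.1 CPM in WT, 14.1, 17.5 and 12.2 in the ect1Δ pct1Δ libraries and 11.7, 12.04 and 11.5 in the cpt1Δ ept1Δ libraries. The ect1Δ pct1Δ libraries lay above all cpt1Δ ept1Δ libraries and overlapped with WT. The log2 fold change of GTT2 in cpt1Δ ept1Δ against ect1Δ pct1Δ was -0.34 ± 0.16 (SE), with an unadjusted p of 0.0403 and an adjusted p of 0.998 in edgeR's quasi-likelihood test. It came to -0.17 without ect1Δ pct1Δ replicate 2. ECM4 had fold changes of 1.22 (0.949 to 1.57) and 1.19 (0.928 to 1.51).

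Summed over GTT1, GTT2 and ECM4, the FPKM was 71.2 to 76.8 in WT, 83.9 to 103 in the ect1Δ pct1Δ libraries and 80.1 to 84.7 in the cpt1Δ ept1Δ libraries. Both strains lay above WT in every library, at 123% and 111% of its mean. The sum of CTA1 and CCP1 was 64.71 to 64.85 in WT, 67.4 to 73.3 in the ect1Δ pct1Δ libraries and 70.3 to 73.1 in the cpt1Δ ept1Δ libraries, again without overlap with WT. The narrow WT range holds opposite values in WT replicate 3, where CTA1 was lowest of its group (15.99) and CCP1 highest (48.72). CTA1 alone overlapped with WT in both strains, and CCP1 alone overlapped in CPM in ect1Δ pct1Δ. In cpt1Δ ept1Δ the sum of ZWF1 and GND1 lay below WT in every library, at 94.9% of its mean. FPKM is scaled by library totals without TMM factors, and sums on the TMM scale were not computed. For these single genes the scales differed. GND1 did not overlap with WT in FPKM (at most 1349 in cpt1Δ ept1Δ, at least 1353 in WT) but overlapped in CPM. ZWF1 overlapped with WT in FPKM but not in CPM. The other sums overlapped with WT, 9 of 11 in ect1Δ pct1Δ and 8 of 11 in cpt1Δ ept1Δ. These sums were not tested, and single genes failed to overlap with WT in 10.6% and 10.4% of all genes.

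The old yellow enzymes, NADPH-dependent reductases of unsaturated carbonyls, differed in level by over 6 log2 units and had values of opposite sign. OYE3 had 4.53, 5.07 and 4.15 CPM in WT, 6.99, 8.08 and 4.72 in the ect1Δ pct1Δ libraries and 5.98, 5.84 and 6.56 in the cpt1Δ ept1Δ libraries. The cpt1Δ ept1Δ libraries lay above WT, and in ect1Δ pct1Δ replicate 3 fell within the WT values. These levels rest on 25 to 94 counts in a library. The log2 fold change of OYE3 was 0.57 ± 0.22 (SE) in ect1Δ pct1Δ, with an unadjusted p of 0.0192 and an adjusted p of 0.585 in edgeR's quasi-likelihood test with Benjamini-Hochberg adjustment, and 0.42 ± 0.22 in cpt1Δ ept1Δ. Leaving out ect1Δ pct1Δ replicate 2 took the ect1Δ pct1Δ value to 0.36, and leaving out WT replicate 3 as well took it to 0.31. OYE2, the abundant form, had 675, 781 and 722 CPM in WT, 683, 716 and 696 in the ect1Δ pct1Δ libraries and 620, 661 and 702 in the cpt1Δ ept1Δ libraries. Its cpt1Δ ept1Δ libraries were the lowest on average and overlapped with WT. The log2 fold change of OYE2 in cpt1Δ ept1Δ was -0.13 ± 0.06 (SE), with an unadjusted p of 0.0447 and an adjusted p of 0.938 in edgeR's quasi-likelihood test, and it was -0.08 without WT replicate 2.

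**Figure D3:**
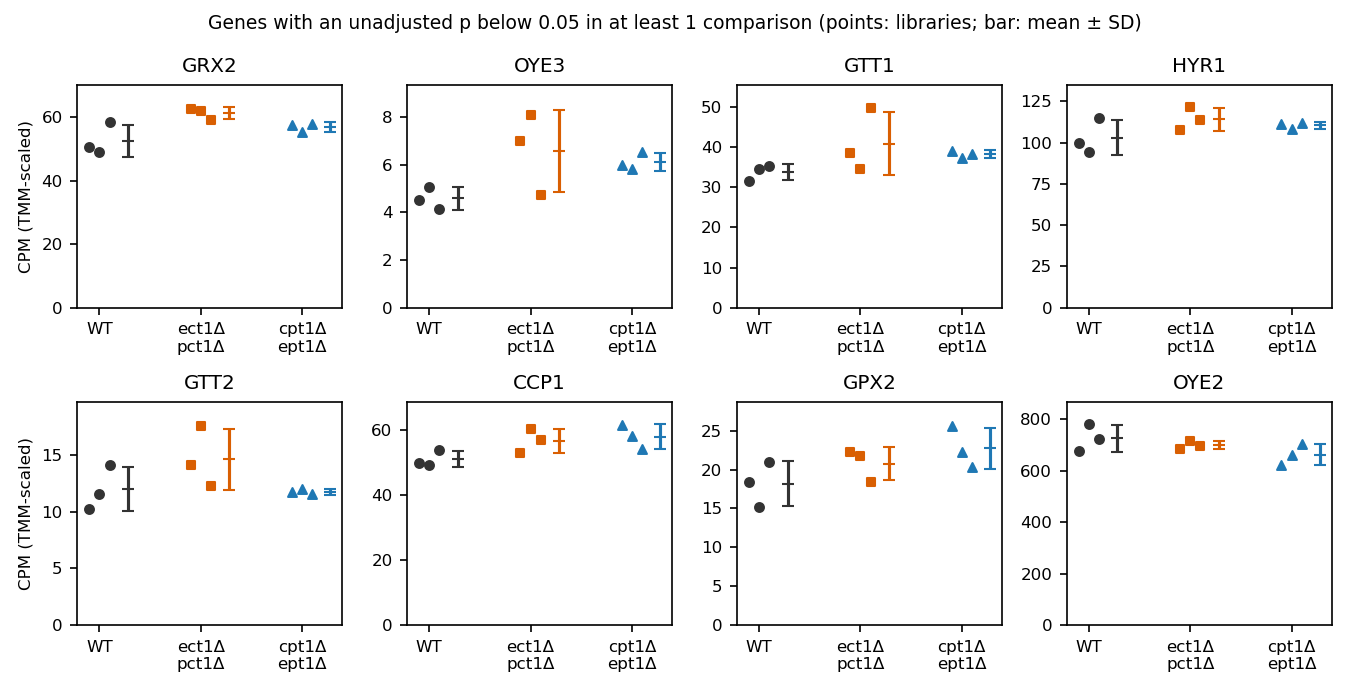
CPM (scaled with TMM factors, axis from 0) of the 8 genes with an unadjusted p below 0.05 in at least 1 comparison, with 1 point per library and the mean ± SD beside it. GRX2 alone shows ect1Δ pct1Δ libraries wholly above WT, and in OYE3, HYR1 and GPX2 single libraries reach into another group.

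The NADPH supply was near WT. ZWF1, the glucose phosphate dehydrogenase that opens the pentose phosphate pathway, had 572, 599 and 569 CPM in WT, 558, 569 and 531 in the ect1Δ pct1Δ libraries and 566, 530 and 556 in the cpt1Δ ept1Δ libraries. The cpt1Δ ept1Δ libraries lay below all WT libraries, and the log2 fold change was -0.07 ± 0.05 (SE) with an unadjusted p of 0.175 in edgeR's quasi-likelihood test. GND1 had 1975, 2045 and 2074 CPM in WT, 1846, 2176 and 1810 in the ect1Δ pct1Δ libraries and 1848, 1927 and 2008 in the cpt1Δ ept1Δ libraries. Its groups overlapped, with fold changes of 0.958 (0.870 to 1.05) and 0.949 (0.862 to 1.04). GND1 lies over 453 of the 474 bases of the antisense gene YHR182C-A, which had 1262 to 2820 counts, so a part of the reads may have been assigned to either gene.

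By their median, the genes of low level had larger values than the abundant ones, which was also so among all genes tested. A division at a mean of 30 CPM, chosen after the values were seen, left TSA2, GPX1, GPX2, GTT2, ECM4, OYE3, CTA1 and TRX3 below it. All 8 were positive in ect1Δ pct1Δ with a median log2 fold change of 0.29, against 55.3% positive and a median of 0.02 among all genes at that level. In cpt1Δ ept1Δ 7 of 8 were positive with a median of 0.23, against 50.2% and 0.00. The median SE of these genes was 0.16 in the ect1Δ pct1Δ libraries and 0.15 in the cpt1Δ ept1Δ libraries. Without ect1Δ pct1Δ replicate 2 the median of 0.29 became 0.17, with 7 of 8 positive, and without cpt1Δ ept1Δ replicate 3 the median of 0.23 became 0.14. The 27 genes of at least 30 CPM had medians of 0.01 and 0.02, with 16 and 15 positive. The summed stress markers given above were also higher in the deletion strains, and their part in these values was not tested.

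Pairs of related genes were compared by the log2 ratio of their length-scaled counts, a balance that does not depend on the library scaling. Among 8 pairs in 3 comparisons, 24 exact two-sided permutation tests gave no adjusted p below 0.6, and 3 libraries against 3 cannot give an exact p below 0.1. For OYE2 over OYE3 the ratio was 7.20, 7.24 and 7.41 in WT, 6.60, 6.46 and 7.18 in the ect1Δ pct1Δ libraries and 6.68, 6.81 and 6.73 in the cpt1Δ ept1Δ libraries. All 6 deletion libraries lay below the WT libraries, with differences of -0.54 in both strains (exact permutation p = 0.1 each). The separation of ect1Δ pct1Δ rests on 7.18 in its replicate 3 against 7.20 in WT replicate 1. On log2 ratios of FPKM + 1 it was lost, with a difference of -0.46 and an exact permutation p of 0.2. For TSA1 over TSA2 it was 6.19, 5.71 and 6.04 in WT, 5.65, 5.54 and 5.64 in the ect1Δ pct1Δ libraries and 6.01, 5.72 and 5.57 in the cpt1Δ ept1Δ libraries. The ect1Δ pct1Δ libraries lay below WT by 0.37 on average (exact permutation p = 0.1), whereas cpt1Δ ept1Δ overlapped with both. TRR1 over TRR2 lay 0.07 lower than WT in cpt1Δ ept1Δ, also without overlap (exact permutation p = 0.1). That separation rests on 3.2468 in cpt1Δ ept1Δ replicate 2 against 3.2480 in WT replicate 2.

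**Figure D4:**
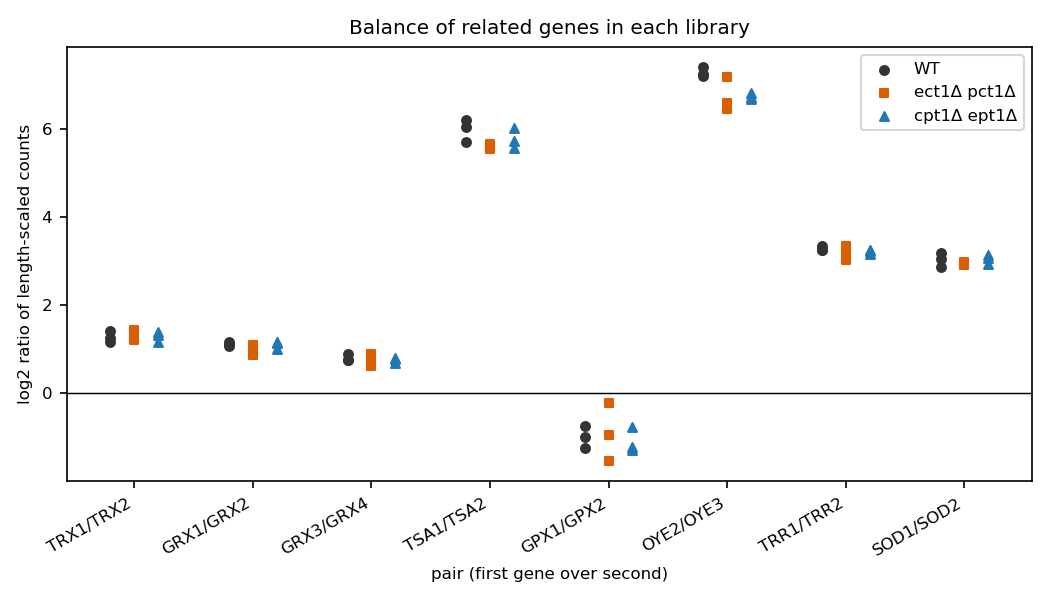
Log2 ratio of length-scaled counts of the first over the second gene of 8 pairs, with 1 point per library. OYE2/OYE3 is lower in the deletion strains than in WT, TSA1/TSA2 is lower in ect1Δ pct1Δ, and GPX1/GPX2 is the pair with the second gene higher in all libraries.

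Sequence identity bears on these pairs, since reads that match both copies could be assigned to either. Over their reading frames TSA1 and TSA2 were 78.5% identical, TRX1 and TRX2 73.5%, OYE2 and OYE3 73.5%, TRR1 and TRR2 71.2% and GRX3 and GRX4 68.5%. Outside these pairs, GND1 was 79.3% identical to GND2 over 1464 aligned bases, and GPX2 74.3% to HYR1 over 424. CCP1 shared 28 aligned bases with CLA4 at 100% identity. How reads of such genes were assigned was not examined. Within the chosen pairs, the longest stretch shared without a mismatch was 21 bases, in GRX3 and GRX4, shown here.
GRX3 and GRX4: TTTGATATATTAAGAGACGAA
In TSA1 and TSA2 the longest shared stretch was 14 bases.
TSA1 and TSA2: GGTAAGTACGTTGT
Both are from the RefSeq coding sequences of build R64, at bases 586 to 606 of GRX3 and 94 to 107 of TSA1, in capitals because every base is shared.

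Related genes outside the 35 were looked at through lists of named pathways, chosen like the 35 with earlier results of these data known. Of 18 tested genes of glutathione turnover, transport and further transferases none was called in either strain. Their lowest unadjusted p-values belonged to BPT1, a vacuolar transporter of glutathione conjugates (log2 fold change of -0.20 in ect1Δ pct1Δ), GRX7, a glutaredoxin of the Golgi (0.20 and 0.15), and ECM38, the enzyme that degrades glutathione (-0.19 in cpt1Δ ept1Δ). Of 7 genes of further peroxide, sulfoxide and nitric oxide defence none was called and all 7 were positive in the ect1Δ pct1Δ libraries and 6 in the cpt1Δ ept1Δ libraries, against 51.2% and 49.2% of all genes. MCR1, a mitochondrial cytochrome b5 reductase, had log2 fold changes of 0.23 and 0.14, and YBP1, which protects Yap1 signalling, 0.12 and 0.12. The libraries of both genes lay above WT in both strains, while 5.92% of all genes did so in ect1Δ pct1Δ and 5.24% in the other strain, and both comparisons use the same WT libraries.

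Of 16 further genes of NADPH supply none was called. SOL4 and SOL3, phosphogluconolactonases, had log2 fold changes of 0.60 and -0.12 in ect1Δ pct1Δ, and in cpt1Δ ept1Δ STB5, a transcription factor for NADPH-producing genes, had -0.27 and RPE1, an epimerase of the pentose phosphate pathway, 0.10. Of 12 further Yap1 targets none was called. HSP31, a glyoxalase and chaperone, came to an adjusted p of 0.0574 in edgeR's quasi-likelihood test with Benjamini-Hochberg adjustment in ect1Δ pct1Δ, with 139 ± 11.4 CPM in WT and 172 ± 7.94 in ect1Δ pct1Δ (SD, n = 3). It was called under 4 of 19 alternatives, which were library totals without TMM factors, no filter on low counts, DESeq2 and leaving out WT replicate 3, with adjusted p-values from 0.0164 to 0.406 over all of them. ATR1, a multidrug exporter, had -0.17 in ect1Δ pct1Δ, and YLR460C had 0.34 and HSP31 0.14 in cpt1Δ ept1Δ. Among the 9 tested stress markers YGP1, a secreted glycoprotein of nutrient limitation, rose in ect1Δ pct1Δ with a log2 fold change of 0.55 and an adjusted p of 0.0352 in edgeR's quasi-likelihood test with Benjamini-Hochberg adjustment. Its call was lost under 10 of 19 alternatives, among them leaving out WT replicate 1, WT replicate 3, ect1Δ pct1Δ replicate 3, cpt1Δ ept1Δ replicate 2 or cpt1Δ ept1Δ replicate 3, with log2 fold changes from 0.42 to 0.62 and adjusted p-values from 0.00195 to 0.229. In cpt1Δ ept1Δ, where none of the 9 was called, the lowest p-values were those of HSP26, a small heat shock protein, with a log2 fold change of 0.47, and of YGP1 with 0.23. Of the 9 markers 7 were positive in each strain, and the others, named here after their values were seen, were SNZ1 (-0.18) and SNO1 (-0.18) in ect1Δ pct1Δ, and SNZ1 (-0.12) and SSA3 (-0.06) in cpt1Δ ept1Δ. The medians of these 9 markers were 0.30 and 0.23.

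The 35 genes varied by library as well as by strain. Their median coefficient of variation within a group was 5.95% in WT, 8.20% in the ect1Δ pct1Δ libraries and 4.99% in the cpt1Δ ept1Δ libraries. In ect1Δ pct1Δ replicate 2, 29 of 35 genes lay above their own mean over the 9 libraries, against 13 and 16 in the other ect1Δ pct1Δ libraries. In WT replicate 2 only 8 did, against 13 and 20 in the other WT libraries, and in cpt1Δ ept1Δ the counts were 26, 13 and 19. Without ect1Δ pct1Δ replicate 2 the number of positive genes in ect1Δ pct1Δ against WT was 18 of 35 in place of 24. Without it the comparison of the strains had 23 of 35 positive in place of 15. The genes with an unadjusted p below 0.05 moved with single libraries too. In ect1Δ pct1Δ the 4 genes became 7 without WT replicate 3, also 7 without ect1Δ pct1Δ replicate 1, and 1 without WT replicate 1. Among all genes tested, 402 became 713, 415 and 304 in the same order. In cpt1Δ ept1Δ the 3 genes became 6 without WT replicate 3 and 0 without WT replicate 2. They became 1 without WT replicate 1, cpt1Δ ept1Δ replicate 1 or cpt1Δ ept1Δ replicate 2. Among all genes tested, 321 became 542, 240, 318, 247 and 293 in the same order. With WT replicate 3 and ect1Δ pct1Δ replicate 2 both left out, the counts were 5 and 9, against 553 and 724 of 6111 genes tested. None of the 35 passed the adjusted threshold then.

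**Figure D5:**
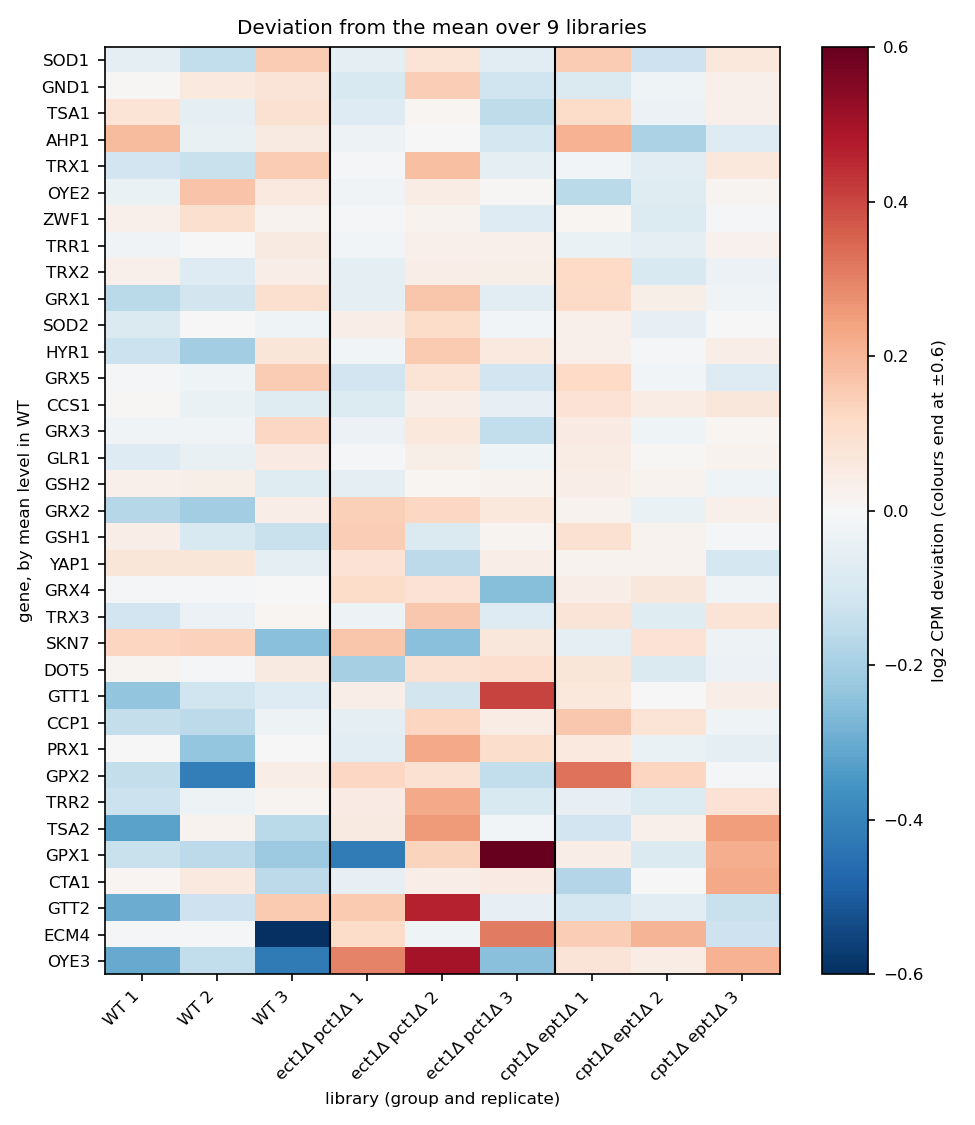
Deviation of each gene's log2 CPM from its mean over the 9 libraries, with genes ordered by WT level and colours ending at ±0.6. The column of ect1Δ pct1Δ replicate 2 is mostly above the mean (29 of 35 genes), that of WT replicate 2 mostly below it (8 of 35 above), and the strongest colours lie among the genes of low level.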

How the data were processed

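Per the labels' protocols, total RNA of log-phase cells was enriched for polyadenylated RNA and copied with random primers. The authors deposited whole-number counts for each gene in each library, and FPKM as a further set of columns named in the file headers. The deposited FPKM is the count divided by gene length and by the library total (100% of 64098 values within 0.0051 or a relative 0.002). HISAT2 2.2.1, HTSeq 0.6.1 and build R64 are named in the submitters' processing notes, with no role or order. Neither the use of strand in counting nor the handling of reads that match more than 1 place is given in the sources used here. The table held 6 columns without a matching sample, not analysed here, and 4 lines without values, which hold at most 0.0158% of a library's total. Of its identifiers 6027 (84.63%) were in the RefSeq annotation of R64, 99.87% of them with the same start and end.

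Groups and replicate numbers came from the titles. The test was that of edgeR 4.0.16, run in R 4.3.3 (glmQLFit and glmQLFTest, TMM, filterByExpr, which left 6083 of 7122 genes), with all 9 libraries in 1 fit of group means, with two-sided p-values, Benjamini-Hochberg adjustment over all genes and called below 0.05. The comparison between the strains tests their difference. The biological coefficient of variation was 6.24%. The 95% intervals come from the SE of that fit and cover the spread between libraries. All replicate pairs gave a chi-square of their counts, per gene, of 2.32 to 9.16, above that of sampling noise. This value cannot tell libraries of separate cultures from repeat preparations of the same RNA. Pair ratios used counts plus 0.5 per gene length. Alternatives were DESeq2 1.42.0, limma 3.58.1 on log2(FPKM + 1) and log2(FPKM + 0.1), other scalings and filters, only the groups compared, a replicate block and each library left out.

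The genes and lists were chosen with earlier results of these data known, and no p-value is adjusted over them alone. Every one of the 35 is described, with the value in each library for the 4 lowest p-values each way per comparison. From other lists the called genes, or else the 2 with the lowest p-value per comparison with WT, are named. GEX1 and SRX1 of those lists were not tested because of low counts.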

Additional observations from a re-analysis of the deposited data

How the results depend on the processing

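None of the 35 genes was called in any comparison under any of the 19 alternatives, and the lowest adjusted p was 0.1002, for GRX2 in ect1Δ pct1Δ against WT. The median log2 fold change of the 35 lay between 0.00 and 0.09 in ect1Δ pct1Δ, 0.03 and 0.07 in cpt1Δ ept1Δ and -0.04 and 0.03 between the strains when single libraries were left out. Of the number of genes called among all genes, leaving out 1 library gave 17 to 40 for ect1Δ pct1Δ against WT (28 with all libraries, 17 without WT replicate 1), 4 to 9 for cpt1Δ ept1Δ against WT (8 with all, 4 without cpt1Δ ept1Δ replicate 2) and 10 to 13 between the strains (12 with all). DESeq2 gave 16 for cpt1Δ ept1Δ against WT. Leaving out both libraries that stand apart, WT replicate 3 and ect1Δ pct1Δ replicate 2, an alternative added after the data were seen, gave 16 for cpt1Δ ept1Δ against WT and 23 between the strains; the cause was not tested. Over all genes tested, deviations from the mean of a library's own group were correlated between libraries of different groups. For same-numbered libraries r lay between -0.27 and 0.26, and for differently numbered ones between -0.31 and 0.36. The labels name no pairing, and with 3 libraries per group these values cannot exclude a shared day or batch. With the replicate number as a block, 23, 7 and 11 genes were called in the 3 comparisons and none of the 35, and YGP1 was no longer called (adjusted p = 0.106 by edgeR's quasi-likelihood test with Benjamini-Hochberg adjustment). Pair ratios were recomputed only on FPKM + 1, where 24 of 24 kept their sign and moved by less than the larger SD of both groups, while OYE2 over OYE3 in ect1Δ pct1Δ then overlapped with WT (difference of -0.46). Of the single values of the 35 genes, 57 moved by more than their SE under an alternative and 1935 did not. Depth limits OYE3 (25 to 94 counts in a library) and the other genes of low level, whose 95% intervals reached past 1.5-fold for 5 genes in ect1Δ pct1Δ. An arm left with 2 libraries was tested with the spread pooled over all groups.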
